A study of Mus musculus with 2 samples.

Results

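The macrophages described here are those of a postischemic mouse kidney that carried transcripts of Gpnmb, Arg1 or Mmp12. A droplet barcode was kept when it held 500 to 100000 unique molecular identifiers (UMIs, 1 per captured transcript), at least 200 genes, at most 50% mitochondrial UMIs, and when the log10 of its gene number was 0.8 or more of the log10 of its UMI number. It was a member when Gpnmb, Arg1 and Mmp12 together reached at least 3 of every 10000 UMIs and at least 2 UMIs, when Csf1r, Cd68 and Lyz2 together reached at least 5 UMIs, and when the cycling genes Mki67 and Top2a together stayed under 4 UMIs. By this rule 1576 of 17701 kept barcodes were members, 705 of 8468 in the Cre- library and 871 of 9233 in the PHDTiEC library. The values of those 8 genes chose the members, so they are given below as a description and support nothing.

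The study asked how loss of the oxygen-sensing prolyl hydroxylases in endothelium, after injury is established, bears on repair of the kidney. Whole injured kidneys were dissociated and profiled by 10X Genomics single-cell RNA sequencing of transcript 3′ ends, with 1 mouse and 1 library per genotype. The PHDTiEC mouse carried Cdh5-CreERT2, a tamoxifen-inducible Cre driven in endothelium, with floxed Phd1, Phd2 and Phd3, and the control was a Cre- littermate. Both were male mice of a cohort operated at 8 to 10 weeks of age. In both, 1 renal artery was clamped for 25 min, tamoxifen was injected every other day from day 1 in 4 doses of 3 mg, and the injured kidney was taken on day 14. The strain background is not given in the sources used here. Macrophages were not the cells in which Cre was driven, and with 1 mouse per genotype a difference between the libraries and a difference between 2 mice cannot be told apart. Intervals in brackets are 95% intervals of counting error only, and no p-value is given.

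Macrophages take up dying cells and debris after tubular injury, digest them in lysosomes and store or export the cholesterol and fatty acids that are released. Gpnmb encodes a transmembrane glycoprotein of the lysosome, Arg1 the enzyme that turns arginine into ornithine and urea, and Mmp12 the macrophage elastase, a secreted protease. All have been described in macrophages that enter or remodel injured tissue. In GRCm38 coordinates Gpnmb lies on the plus strand of chromosome 6 from 49036546 to 49070929, Mmp12 on the plus strand of chromosome 9 from 7344381 to 7369499, and Arg1 on the minus strand of chromosome 10 from 24915221 to 24927484.

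Members were deeper than the macrophage barcodes around them. Their median was 12648 UMIs in Cre- and 13099 in PHDTiEC, against 6881 and 7250 UMIs in the other macrophage barcodes, which met the same rule apart from the 3 marker genes. Kept barcodes held 111958662 UMIs in Cre- and 126549073 in PHDTiEC, of which members held 10560633 and 13496286. Members had a median of 2980 and 3106 genes, and mitochondrial transcripts took a median of 3.51% and 2.58% of their UMIs. Of the members, 93.2% in Cre- and 96.0% in PHDTiEC had a UMI of Ptprc, the pan-leukocyte gene. Adgre1, which encodes the macrophage marker F4/80, was found in 64.8% and 66.2% of members and in 2.28% and 1.30% of T cell barcodes, and Itgam, which encodes CD11b, in 76.5% and 78.6% against 2.63% and 1.59%. T cell barcodes are those with at least 2 UMIs of Cd3e, Cd3d and Cd3g that are not macrophages. The libraries shared 27 kept barcode sequences, of which 1 was a member in both. Without these 27, the ratio of member shares of kept barcodes between the libraries was 1.13, as with them.

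Some members also carried transcripts of other kidney cells. A barcode with at least 20 UMIs per 10000 from marker genes of tubule, endothelium, stroma, lymphocytes or neutrophils is called an other-lineage barcode, and 42 members in Cre- (5.96%) and 74 in PHDTiEC (8.50%) were of this kind. Among other macrophage barcodes the share was 22.5% and 24.1%. Comparisons with other macrophage barcodes therefore used 663 and 797 members and 2103 and 2221 other macrophage barcodes, none of them other-lineage barcodes. In those members the summed level of the 15 tubule markers was 127 counts per 1000000 (CPM) in Cre- and 133 CPM in PHDTiEC, that of the 8 stromal markers 21.9 and 23.5 CPM, that of the 7 endothelial markers 16.9 and 13.0 CPM, that of the 10 lymphocyte markers 29.8 and 19.0 CPM and that of the 5 neutrophil markers 60.6 and 57.6 CPM. The 6 dendritic cell markers summed to 25.99 and 28.8 CPM, and no doublet caller was run. Haemoglobin transcripts summed to 837 and 119 CPM, and over all members 10 barcodes gave 99.9% and 96.6% of them. Of all these lists, the only marker without a UMI in the members of a library was the tubule gene Krt20, in Cre-.

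Members made up a slightly larger share of the PHDTiEC library, and the size of that difference turned on which marker genes the rule held. They were 8.33% (7.75 to 8.93) of kept barcodes in Cre- and 9.43% (8.84 to 10.0) in PHDTiEC, a ratio of 1.13 (1.03 to 1.25). Of macrophage barcodes they were 20.6% (19.3 to 22.01) and 22.9% (21.6 to 24.3), a ratio of 1.11 (1.02 to 1.22). Without Gpnmb in the rule the ratios were 1.03 (0.924 to 1.14) and 1.01 (0.913 to 1.11), and without Mmp12 they were 1.31 (1.14 to 1.5) and 1.29 (1.13 to 1.47). A further 66 barcodes in Cre- and 69 in PHDTiEC met the marker rule but held 4 or more UMIs of Mki67 and Top2a, and are not members.

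**Figure D1:**
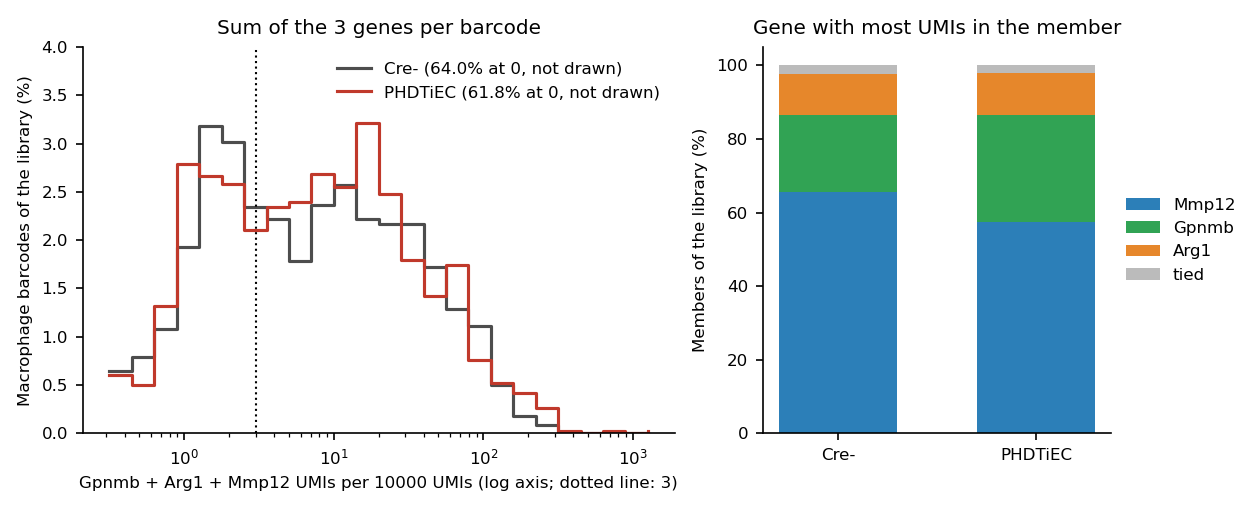
Left, histogram of the summed UMIs of Gpnmb, Arg1 and Mmp12 per 10000 UMIs of a barcode (log axis) as a percentage of the macrophage barcodes of each library, with a dotted line at the member limit of 3; barcodes at 0, 64.0% in Cre- and 61.8% in PHDTiEC, are not drawn. Right, stacked bars from 0 of the percentage of members in which each gene had the most UMIs; Mmp12 led most members in both libraries, and Gpnmb led 20.9% in Cre- and 28.9% in PHDTiEC.

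The 3 genes did not mark one uniform set of barcodes. Their summed level in members had a median of 16.7 per 10000 in Cre- and 16.0 in PHDTiEC, with quartiles of 7.65 and 36.8 and of 7.35 and 36.8, and a highest value of 248 and 1674. The limit of 3 fell in a continuous range: 25 barcodes in Cre- and 30 in PHDTiEC lay just under it, between 2.5 and 3, and 33 and 35 lay just over it, between 3 and 3.5. Just under the limit Lpl stood at 324 CPM in Cre- and 301 CPM in PHDTiEC, and just over it at 395 and 637 CPM. Fn1 was at 810 and 458 CPM just under and at 785 and 763 CPM just over, and Fabp5 at 368 and 447 CPM just under and at 303 and 514 CPM just over. Barcodes on both sides of the limit thus carried the label's other markers at similar levels in Cre-, while in PHDTiEC those just over it had more Lpl and Fn1.

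Mmp12 was the most widely detected of the 3 genes. At least 1 UMI of Mmp12 was found in 83.3% of members in Cre- and 77.4% in PHDTiEC, of Gpnmb in 46.0% and 53.0%, and of Arg1 in 38.9% and 36.9%. With every member reduced to 5000 UMIs, which left out 53 and 56 shallower members, the shares were 78.7% and 70.2% for Mmp12, 37.7% and 45.3% for Gpnmb and 32.2% and 29.4% for Arg1. In T cell barcodes, which should lack these genes and had median depths of 3412 and 3580.5 UMIs, 1.93% and 2.16% had a UMI of Mmp12, 1.35% and 0.618% of Gpnmb and 1.16% and 1.39% of Arg1 after reduction to 2000 UMIs, the depth at which members had 69.6% and 61.1%, 30.5% and 36.7%, and 22.9% and 18.1%. Members with Mmp12 alone numbered 283 and 285, and those with UMIs of all 3 genes 119 and 134. Summed over members, Gpnmb stood at 867 CPM in Cre- and 1074 CPM in PHDTiEC, a log2 ratio of 0.31 (0.27 to 0.35), and Mmp12 at 2409 and 2231 CPM, a log2 ratio of -0.11 (-0.13 to -0.09). Arg1 was at 366 CPM in Cre- and 236 CPM in PHDTiEC, a log2 ratio of -0.63 (-0.70 to -0.56).

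Which of the 3 genes had the most UMIs in a barcode gave a way to divide the members, chosen after their values were seen. Mmp12 led 463 members in Cre- (65.7%) and 501 in PHDTiEC (57.5%), a ratio of shares of 0.876 (0.810 to 0.947). Gpnmb led 147 (20.9%) and 252 (28.9%), a ratio of 1.39 (1.16 to 1.66), and Arg1 led 78 (11.1%) and 101 (11.6%), a ratio of 1.05 (0.794 to 1.38). In 17 members of each library the lead was tied. These shares are made of the rule's own genes and are a description.

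The other markers of an injury macrophage, which the rule did not use, were higher in members than in other macrophage barcodes in both libraries. Over 11761 genes with at least 100 UMIs, 298 genes (2.53%) were more than 2-fold higher in members in both libraries and 1381 (11.7%) more than 2-fold lower, and the median log2 ratio over all of them was -0.23 in Cre- and -0.19 in PHDTiEC. All 4 label markers, Fabp5, Cd36, Lpl and Fn1, were among those higher. Because the members were cut from the macrophages on their own counts, all such ratios are a description.

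Fabp5, an intracellular fatty acid carrier, stood at 1811 CPM in members and 112 CPM in other macrophage barcodes in Cre-, and at 2124 and 164 CPM in PHDTiEC, log2 ratios of 4.02 (3.95 to 4.09) and 3.69 (3.64 to 3.75). Cd36, a scavenger receptor that imports fatty acids, was at 333 against 39.8 CPM in Cre- and 300 against 40.1 CPM in PHDTiEC. Lpl, a secreted lipase that frees fatty acids from triglycerides, was at 1170 against 181 CPM and at 1024 against 155 CPM. Fn1, the matrix glycoprotein fibronectin, was at 1236 against 202 CPM and at 1032 against 184 CPM. For these 4 genes the members exceeded the other macrophage barcodes by log2 ratios of 2.49 to 4.02, and the label of injury macrophages was kept.

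**Figure D2:**
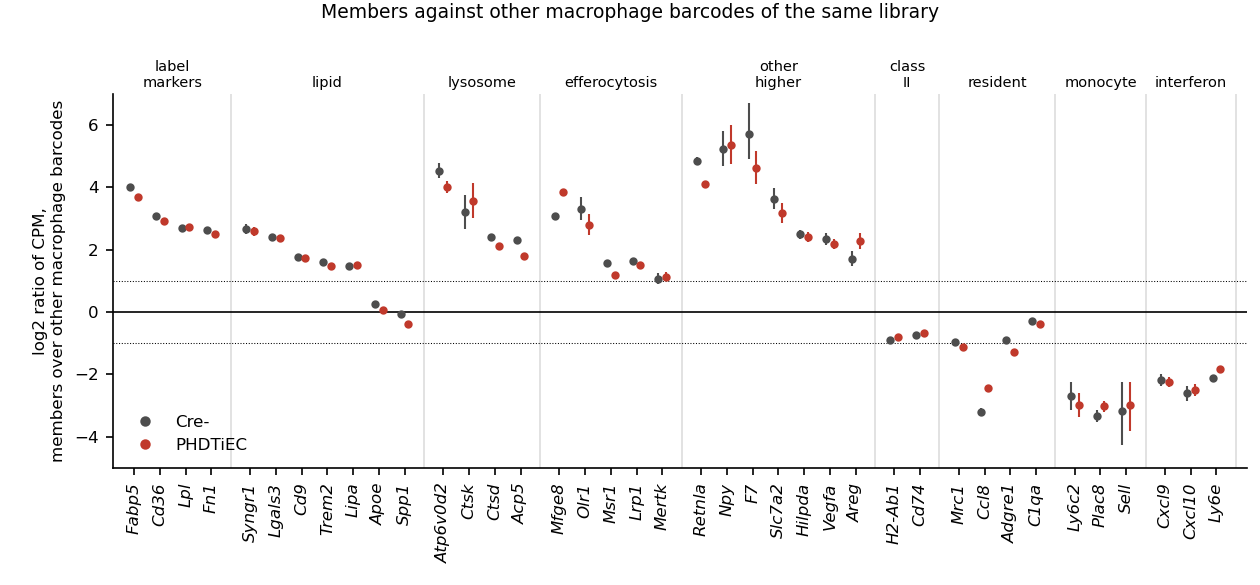
Log2 ratio of CPM in members over other macrophage barcodes of the same library, both without other-lineage barcodes, for genes grouped by list; points are Cre- (grey) and PHDTiEC (red), bars are 95% intervals of counting error, and dotted lines mark a 2-fold ratio. The label markers, lysosomal genes and uptake genes drawn lie above 0 in both libraries, and the class II, resident, monocyte and interferon genes drawn lie below it; F10, the monocyte gene that was higher in members, is not drawn.

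Of 18 genes of lipid-associated macrophages, 11 were more than 2-fold higher in members and none lower, with list medians of log2 1.31 in Cre- and 1.34 in PHDTiEC. The 11 include Fabp5, Cd36 and Lpl. Trem2, a lipid-sensing receptor, stood at 912 against 302 CPM in Cre- and at 915 against 327 CPM in PHDTiEC. Lgals3, the lectin galectin-3, was at 3599 against 680 CPM and at 3317 against 644 CPM, and Syngr1 at 160 against 25.1 CPM and at 192 against 32.0 CPM. Apoe, the apolipoprotein that carries cholesterol out of the cell, differed far less, at 29480 against 24579 CPM and at 33093 against 32004 CPM. Spp1, or osteopontin, did not mark the members, at 6738 against 7100 CPM in Cre- and at 4342 against 5715 CPM in PHDTiEC. Spp1 was also abundant outside cells, at 15448 and 11237 CPM in barcodes with fewer than 100 UMIs and at 7613 and 4144 CPM in T cell barcodes, and the part of free transcripts in its member level was not tested.

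Genes of digestion and of uptake were higher as well. Of 14 lysosomal genes 4 were more than 2-fold higher and none lower, with list medians of log2 0.82 and 0.89. Atp6v0d2, a subunit of the proton pump that acidifies lysosomes, was at 209 against 9.12 CPM in Cre- and at 251 against 15.6 CPM in PHDTiEC, log2 ratios of 4.52 (4.28 to 4.77) and 4.01 (3.83 to 4.19). Ctsd, an aspartic protease of the lysosome, was at 4090 against 778 CPM and at 4145 against 952 CPM. The other genes past 2-fold were Ctsk and Acp5.

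Of 11 genes for the uptake of dying cells and for scavenging, 7 were more than 2-fold higher and none lower, with list medians of log2 1.45 and 1.15. Mfge8, a secreted bridge between phosphatidylserine on dying cells and the phagocyte, was at 392.3 against 46.7 CPM in Cre- and at 644 against 45.3 CPM in PHDTiEC, log2 ratios of 3.07 (2.96 to 3.18) and 3.83 (3.73 to 3.94). Msr1, a scavenger receptor, was at 171 against 58.0 CPM and at 166 against 73.3 CPM, and Mertk, a receptor tyrosine kinase of efferocytosis, at 55.5 against 26.5 CPM and at 81.3 against 37.2 CPM. Marco is also among the 7, but 70.4% of its UMIs on one side of the comparison came from 1 barcode. Ferritin light and heavy chains, Ftl1 and Fth1, were the iron genes more than 2-fold higher, with log2 ratios of 1.04 to 1.28, and of 9 iron genes Cp, the ferroxidase ceruloplasmin, was more than 2-fold lower.

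Among 16 measured HIF target genes outside glycolysis, 3 were more than 2-fold higher in members and 2 lower, with list medians of log2 0.23 and 0.15. Hilpda, which blocks lipolysis at lipid droplets, was at 176 against 31.2 CPM in Cre- and at 125 against 23.7 CPM in PHDTiEC. Vegfa, the endothelial growth factor, was at 98.2 against 19.4 CPM and at 96.5 against 21.4 CPM. Ankrd37 was the other gene past 2-fold on the high side, and Ddit4 and Ndrg1 were lower. Of 18 genes of glucose uptake, glycolysis and lactate export, 5 were higher and none lower, namely Aldoa, Pkm, Pgam1, Hk3 and Slc16a3, the lactate exporter also called MCT4. Slc16a3 stood at 52.7 against 18.8 CPM in Cre- and at 40.2 against 13.6 CPM in PHDTiEC. In arginine and polyamine metabolism 2 of 7 measured genes were higher and none lower, and Slc7a2, a transporter that brings arginine into the cell, was at 63.9 against 5.18 CPM and at 46.4 against 5.15 CPM.

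Matrix, growth factor and cytokine genes were mixed. Of 17 matrix and protease genes 5 were more than 2-fold higher, Fn1, Plaur, Mmp8, Mmp19 and Timp1, and 2 lower, with list medians of log2 0.51 and 0.36. Of 12 growth factors Areg and Vegfa were higher and Hbegf and Il10 lower. Areg, an EGF receptor ligand, stood at 45.9 against 14.1 CPM in Cre- and at 45.6 against 9.51 CPM in PHDTiEC. Of 14 inflammatory genes Il1a and Il6 were higher and the chemokines Ccl2, Ccl4 and Ccl7 lower, with list medians of log2 -0.41 and -0.53. Il1b, the cytokine interleukin 1 beta, was at 1117 against 1824 CPM and at 877 against 1781 CPM, within 2-fold in Cre- alone.

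Several lists lay on the low side in members. Of 11 interferon-induced genes none was higher and 9 were more than 2-fold lower, with list medians of log2 -1.70 and -1.85. Ly6e was at 197 against 846 CPM in Cre- and at 237 against 832 CPM in PHDTiEC. Of 10 class II and costimulation genes 1 was more than 2-fold lower, Cd40, and the list medians were log2 -0.69 and -0.79. H2-Ab1, which encodes the class II beta chain, was at 3585 against 6629 CPM and at 3225 against 5600 CPM. Of 11 stress genes induced by dissociation none was higher and 5 were more than 2-fold lower, with list medians of log2 -0.81 and -0.84. Of 10 genes of alternative activation, Retnla and Il1rn were higher and Chil3 and Clec10a lower, with medians of -0.03 and 0.23. Of 12 receptors for ligands made by endothelium, Itgb2 was higher and Ackr3 lower, with medians of -0.32 and -0.33. Of 24 genes that the study named for a macrophage cluster, chosen on these same libraries and so not independent evidence of their direction, Ctsd was higher and Cp and Ly6e lower, with medians of -0.05 and -0.08.

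Leaving out the rule's own genes, lineage markers and genes with more than 25% of their UMIs from 1 barcode, the 10 genes with the largest ratio in the less extreme library were Prss46, Npy, Mamdc2, Stac2, F7, Slc36a2, Gm6209, Retnla, Htr2b and Atp6v0d2. Npy, which encodes neuropeptide Y, stood at 64.1 against 1.73 CPM in Cre- and at 54.9 against 1.36 CPM in PHDTiEC. F7, which encodes coagulation factor VII, was at 37.6 against 0.715 CPM and at 47.1 against 1.92 CPM. Npy was found in 15.2% and 14.8% of all members and F7 in 18.9% and 21.4%, which are shares of members with a UMI and not of members that express the gene. Retnla, a secreted resistin-like protein of alternative activation, was at 1156 against 40.2 CPM in Cre- and at 1135 against 66.1 CPM in PHDTiEC. This ratio turned on Mmp12 being in the rule: with members chosen on Gpnmb and Arg1 alone, Retnla had log2 ratios of -5.27 and -4.0, and Areg one of -1.68 in PHDTiEC. The 10 genes at the low end were Rgs4, Myo7b, Gcsam, Gpr141b, C6, Cd177, Snx22, Cabp4, Abat and 1600027J07Rik, all in few UMIs in members, as with Rgs4 at 0.312 against 9.0 CPM in Cre- and 0.335 against 5.32 CPM in PHDTiEC.

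The closest other macrophages were resident-like and monocyte-like barcodes. Resident-like barcodes, 1052 in Cre- and 1210 in PHDTiEC, were no members and carried Mrc1 or Ccl8 at 3 per 10000 or more together with complement C1q genes. Monocyte-like barcodes, 138 and 165, were no members, carried Ly6c2 and Ccr2 together at 3 per 10000 or more and had C1q genes under 10 per 10000. The division was not sharp, since 25.7% of members in Cre- and 28.0% in PHDTiEC also met the resident-like limits and 4.82% and 4.94% the monocyte-like ones. The genes that define those classes, Mrc1, Ccl8, Ly6c2, Ccr2 and the C1q genes, are given as a description.

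C1qa, a complement subunit of tissue macrophages, stood at 3349 CPM in members, 6170 CPM in resident-like and 23.1 CPM in monocyte-like barcodes in Cre-, and at 3236, 5950 and 22.7 CPM in PHDTiEC. Adgre1 was at 152, 444 and 49.5 CPM and at 151, 534 and 73.3 CPM. Ly6c2, the marker of inflammatory monocytes, was at 5.09, 3.59 and 401 CPM and at 5.28, 3.88 and 487 CPM. C1qa and Ly6c2 helped to define the classes set beside the members, while Adgre1 did not, and for C1qa and Adgre1 the members lay between those classes.

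Other genes were at their highest in members. Ctsd was at 4090, 781 and 160 CPM in Cre- and at 4145, 1035 and 217 CPM in PHDTiEC, in members, resident-like and monocyte-like barcodes in that order. Fn1 was at 1236, 117 and 608 CPM and at 1032, 138 and 636 CPM. S100a4, a calcium-binding protein of monocytes, lay between, at 614, 59.3 and 2474 CPM and at 503, 47.2 and 1849 CPM. Of 13 measured resident genes 1 was more than 2-fold lower in members than in other macrophage barcodes, Ccl8, and of 12 monocyte genes 7 were lower and 1 higher, F10, which encodes coagulation factor X.

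**Figure D3:**
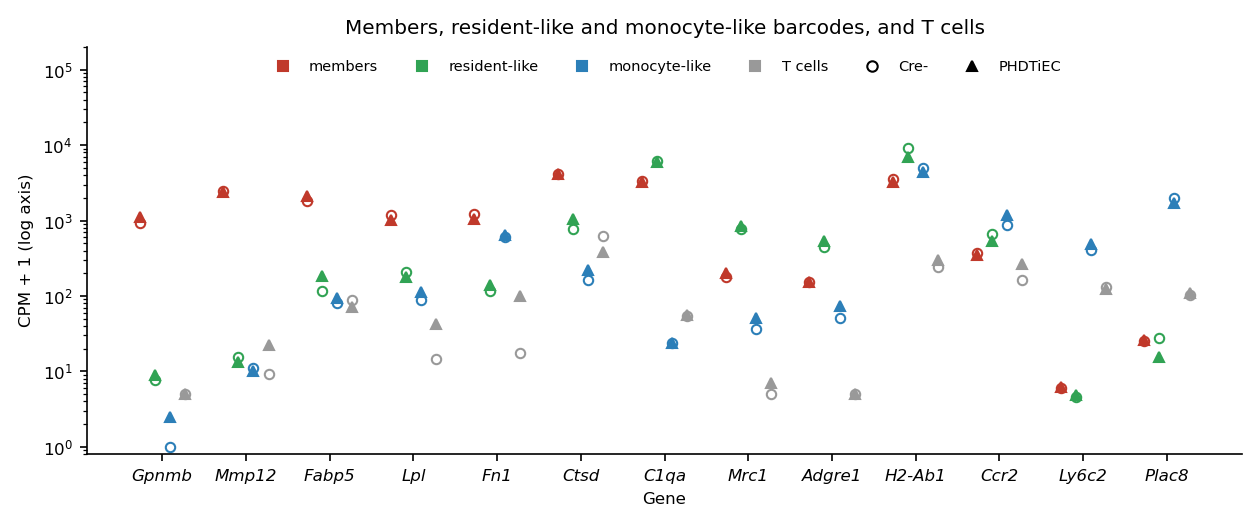
CPM + 1 (log axis) of 13 genes in members, resident-like barcodes, monocyte-like barcodes and T cell barcodes, with open circles for Cre- and triangles for PHDTiEC. Fabp5, Lpl, Fn1 and Ctsd are highest in members in both libraries, C1qa, Mrc1 and Adgre1 in resident-like barcodes, and Ly6c2 and Plac8 in monocyte-like barcodes.

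Members led by different genes had different transcriptomes, and the pattern recurred in both libraries. After removal of other-lineage barcodes there were 137 Gpnmb-led members in Cre- and 226 in PHDTiEC, 74 and 92 Arg1-led members, and 435 and 465 Mmp12-led members. Gpnmb-led members held most lipid and lysosome genes and Mfge8 at their highest, Arg1-led members held Fn1, Thbs1 and Slc7a2, and Mmp12-led members held class II genes, Ccr2, Mgl2, Il1b and Retnla. The groups were defined by 3 genes in the same barcodes, so these are descriptions of 2 libraries with no test. A gene is counted below when the ratio passed 1.5-fold in the same direction in both libraries. The share of all genes that did so was not counted, so the counts describe the lists and do not set them apart from other genes.

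Apoe stood at 60318 CPM in Gpnmb-led, 25604 CPM in Arg1-led and 17050 CPM in Mmp12-led members of Cre-, and at 59371, 37692 and 15829 CPM in PHDTiEC. Fabp5 was at 4028, 1743 and 902 CPM and at 4201, 958 and 1087 CPM. Ctsd was at 8079, 4085 and 2418 CPM and at 7335, 3270 and 2362 CPM. For these genes Gpnmb-led members were highest in both libraries, while the order of the other groups differed between libraries for Fabp5.

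Over Mmp12-led members, Gpnmb-led members were higher in 10 of 18 lipid genes and lower in none, with list medians of log2 0.89 in Cre- and 0.73 in PHDTiEC, and higher in 7 of 14 lysosomal genes and lower in none, with medians of 0.72 and 0.67. Mfge8 was at 743 and 1198 CPM in Gpnmb-led, 34.2 and 67.5 CPM in Arg1-led and 324 and 424 CPM in Mmp12-led members. Selenop, a selenium carrier typical of tissue macrophages, was at 1166 and 1513 CPM in Gpnmb-led members and at 316 and 312 CPM in Mmp12-led members. Igf1, the insulin-like growth factor, was at 430 and 419 CPM against 163 and 171 CPM. The lipid genes past 1.5-fold were thus all higher in Gpnmb-led than in Mmp12-led members. Cd36 and Lpl were not among them, and Lpl was at 1035 and 630 CPM in Gpnmb-led and at 1339 and 1362 CPM in Mmp12-led members.

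Arg1-led members had more Thbs1 and Slc7a2 than the other groups, and the matrix and arginine lists were mixed. Over Mmp12-led members, 4 of 15 measured matrix genes were higher and 2 lower (Mmp13 and Plau), with list medians of log2 0.56 in Cre- and 0.24 in PHDTiEC, and of 7 arginine and polyamine genes Slc7a2 was higher and none lower, with medians of 0.24 and 0.07. Over Gpnmb-led members, Ass1, Slc7a2 and Srm of that list were higher and none lower, with medians of 0.87 and -0.0029. Fn1 was at 2037 and 1984 CPM in Arg1-led, 468 and 347 CPM in Gpnmb-led and 1379 and 1273 CPM in Mmp12-led members. Thbs1, the matrix protein thrombospondin 1, was at 544 and 309 CPM in Arg1-led, 117 and 188 CPM in Gpnmb-led and 76.9 and 77.6 CPM in Mmp12-led members. Slc7a2 was at 154 and 83.95 CPM in Arg1-led members and at 53.9 and 45.1 CPM in Mmp12-led members. Msr1 was at 384 and 352 CPM in Arg1-led against 134 and 135 CPM in Mmp12-led members.

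Over Gpnmb-led members, Arg1-led members were higher in 5 of 18 genes of glycolysis and lactate export, Eno1, Ldha, Pfkp, Pgk1 and Slc16a3, and lower in 1, Hk3, with list medians of log2 0.70 in Cre- and 0.31 in PHDTiEC. They were higher in 6 of 14 measured matrix genes and lower in 1, with medians of 1.0 and 0.39. Vegfa was at 184 and 129 CPM in Arg1-led members and at 87.6 and 106 CPM in Gpnmb-led members, past 1.5-fold in Cre- alone.

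Class II genes also differed between the groups. Over Mmp12-led members, Gpnmb-led members were lower in 9 of 10 class II and costimulation genes and higher in none, with list medians of log2 -2.97 and -2.36, and Arg1-led members were lower in 7 and higher in 1. H2-Ab1 was at 5487 and 4889 CPM in Mmp12-led, 465 and 752 CPM in Gpnmb-led and 832 and 2440 CPM in Arg1-led members. Per barcode, the sum of 4 class II genes had a median of 448 per 10000 in Mmp12-led members of Cre- and 381 in PHDTiEC, 2.37 and 3.31 in Gpnmb-led members, and 4.08 and 128 in Arg1-led members. Most Gpnmb-led members thus had few class II transcripts, and Arg1-led members differed between the libraries.

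The inflammatory genes past 1.5-fold were lower in Gpnmb-led than in Mmp12-led members, and monocyte genes were mixed. The share of all genes past 1.5-fold was not counted here either, so these counts describe the lists alone. Gpnmb-led members were lower than Mmp12-led members in 8 of 14 inflammatory genes and higher in none, with list medians of log2 -1.0 and -1.24. Of 9 measured monocyte genes they were lower in 5, Ccr2, F10, Ifitm6, S100a4 and S100a6, and higher in 2, Plac8 and Thbs1, with medians of -1.13 and -1.42. Arg1-led members were higher than Mmp12-led members in the inflammatory genes Ccl2 and Ccl7 and lower in Tnfaip3, with medians of -0.29 and -0.09, and of the monocyte genes higher in Thbs1 and lower in Ccr2, with medians of 0.32 and -0.17. Il1b was at 1521 and 1269 CPM in Mmp12-led, 938 and 1027 CPM in Arg1-led and 284 and 200 CPM in Gpnmb-led members. Ccr2, the receptor by which monocytes enter tissue, was at 541 and 532 CPM, 218 and 325 CPM, and 25.1 and 48.3 CPM in the same order. Mgl2, a lectin of class II-positive macrophages and dendritic cells, was at 693 and 616 CPM, 24.8 and 132 CPM, and 8.52 and 16.6 CPM.

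**Figure D4:**
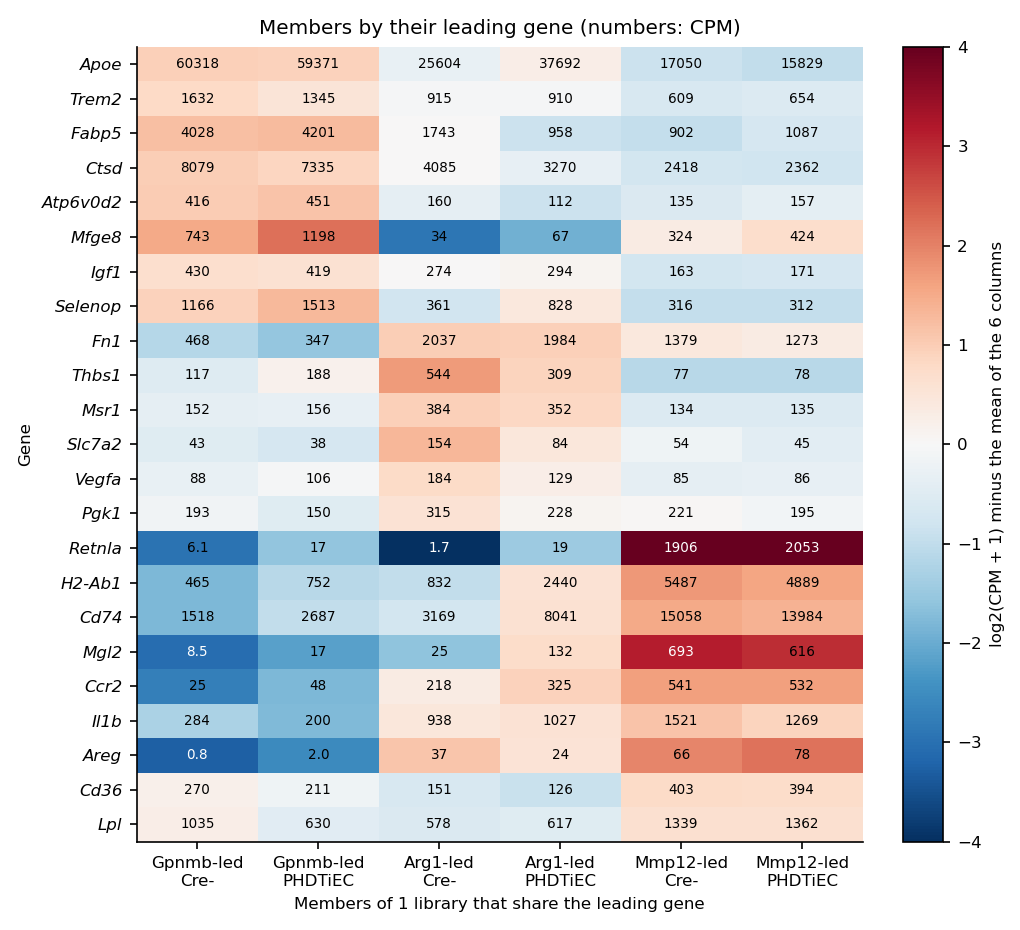
Heat map of 23 genes in Gpnmb-led, Arg1-led and Mmp12-led members of each library, without other-lineage barcodes; the number in a cell is CPM and its colour is log2(CPM + 1) minus the mean of the 6 columns of that gene. Many genes are alike across libraries in columns of the same leading gene. Exceptions in Arg1-led members include class II genes, Mgl2, Selenop and Mfge8, higher in PHDTiEC, and Fabp5, Thbs1 and Slc7a2, lower. Exceptions in Gpnmb-led members include class II genes, Mfge8 and Thbs1, higher in PHDTiEC, and Lpl, lower.

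Retnla came almost wholly from a small subset of Mmp12-led members, picked out after its values were seen. Of Mmp12-led members, 72 of 435 in Cre- (16.6%) and 80 of 465 in PHDTiEC (17.2%) had Retnla at 10 per 10000 or more, and they held 98.5% of the Retnla UMIs of Mmp12-led members in both libraries. These Retnla-high members had little Apoe, at 3703 CPM in Cre- and 3462 CPM in PHDTiEC against 19625 and 18180 CPM in the other Mmp12-led members. Their Fabp5 was at 95.6 and 221 CPM against 1058 and 1251 CPM, and their Mfge8 at 6.37 and 25.1 CPM against 385 and 500 CPM.

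H2-Ab1, Ccr2, Cd36, Lpl and Fn1 were higher in the same members, and no gene list was counted in them. H2-Ab1 was at 8791 and 7592 CPM in Retnla-high members against 4850 and 4375 CPM in the other Mmp12-led members, and Ccr2 at 1121 and 1129 CPM against 429 and 418 CPM. Cd36 was at 654 and 695 CPM against 355 and 336 CPM, Lpl at 2216 and 1963 CPM against 1170 and 1248 CPM, and Fn1 at 2537 and 2358 CPM against 1156 and 1067 CPM. The dendritic cell genes Flt3 and Zbtb46 stood at 1.06 and 1.06 CPM in Cre- and at 5.78 and 0.964 CPM in PHDTiEC in Retnla-high members, and C1qa at 2474 and 2010 CPM. Cd209a was at 9.56 and 18.3 CPM against 38.7 and 41.6 CPM in the other Mmp12-led members. Mgl2 was higher, at 1371 and 1191 CPM against 562 and 506 CPM, as was Itgax, at 500 and 401 CPM against 302 and 362 CPM. Adgre1 was lower, at 80.7 and 58.8 CPM against 138 and 130 CPM. Whether Retnla-high members are macrophages or dendritic cells was not tested. Of the label's markers, Cd36, Lpl and Fn1 were thus higher in Retnla-high members and Fabp5 lower.

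Between the libraries, the members differed in few genes. Over 9756 genes with at least 100 UMIs, 206 genes (2.11%) were more than 1.5-fold higher in PHDTiEC members and 127 (1.3%) more than 1.5-fold lower, and the median log2 ratio was 0.05. With TMM scaling, which shifts all ratios by -0.05, the counts were 166 and 151. Of the 206, 110 also passed 1.5-fold in members without other-lineage barcodes and 24 in other macrophage barcodes, and of the 127 the numbers were 93 and 30. In 22 of the 206 and 40 of the 127, more than 25% of the UMIs came from 1 barcode.

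The 10 highest genes by the rule for naming genes were all nearer to even, or lower in PHDTiEC, without other-lineage barcodes. Leaving aside the marker genes of other lineages, such as Col1a2 and Col3a1, and genes with more than 25% of their UMIs in 1 barcode, the 10 highest were Sparcl1, Col6a3, Serping1, Plat, Igfbp5, Gpihbp1, Nid1, Bgn, Col5a2 and Mylk, with log2 ratios of 1.56 to 2.31 in all members. Sparcl1, a matrix protein, stood at 4.17 CPM in Cre- and 20.6 CPM in PHDTiEC, a log2 ratio of 2.31 (1.84 to 2.8). In members without other-lineage barcodes the same 10 genes had log2 ratios of -2.18 to 0.63, and that of Sparcl1 was -0.19 (-0.90 to 0.53). The 8 stromal markers summed to 36.6 CPM in all members of Cre- and 189 CPM in those of PHDTiEC, with 77.5% of the latter from 10 barcodes, against 21.9 and 23.5 CPM in members without other-lineage barcodes. Endothelial markers summed to 24.1 and 50.4 CPM and to 16.9 and 13.0 CPM. Other-lineage barcodes are defined by these same markers, so leaving them out lowers both sums by construction, and the sums are a description.

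**Figure D5:**
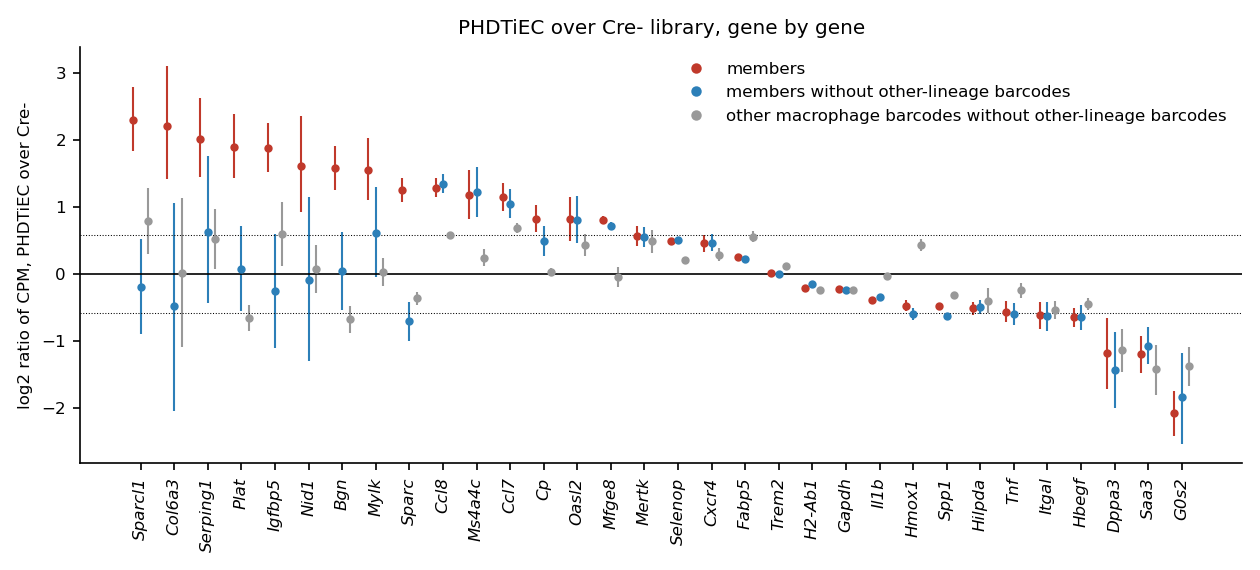
Log2 ratio of CPM, PHDTiEC over Cre-, for 32 genes in all members (red), in members without other-lineage barcodes (blue) and in other macrophage barcodes without other-lineage barcodes (grey), with 95% intervals of counting error and dotted lines at 1.5-fold. The genes from Sparcl1 to Sparc are above 1 in all members and lie between -0.71 and 0.63 without other-lineage barcodes, while Ccl8, Ms4a4c, Ccl7 and Mfge8 are above 0.58 in members with and without them.

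Some myeloid genes were higher in PHDTiEC members with and without other-lineage barcodes. Ccl8, a chemokine of resident macrophages, stood at 50.9 CPM in Cre- and 124 CPM in PHDTiEC, a log2 ratio of 1.29 (1.15 to 1.43), against 1.35 (1.21 to 1.5) without other-lineage barcodes, 0.71 after thinning to 2000 UMIs and 0.58 (0.54 to 0.62) in other macrophage barcodes. Ccl7, a monocyte chemoattractant, was at 24.6 and 54.7 CPM, a log2 ratio of 1.15 (0.95 to 1.36), against 0.68 (0.61 to 0.76) in other macrophage barcodes. Ms4a4c was at 8.14 and 18.5 CPM, a log2 ratio of 1.19 (0.83 to 1.56), and at 0.31 (-0.19 to 0.81) in Mmp12-led members. In PHDTiEC, 1 barcode gave 63.4% of the Ms4a4c UMIs of Gpnmb-led members and 1 gave 55.3% of those of Arg1-led members, and for Ccl7 the shares were 55.9% and 49.1%. Without the barcode that gave each gene its most UMIs, the ratios over all members were 1.01 for Ms4a4c and 1.19 for Ccl7. Ccl8 and Ccl7 were thus higher in PHDTiEC in members and in other macrophage barcodes, while Ms4a4c was at a log2 ratio of 0.24 (0.12 to 0.37) in the latter.

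The Ccl8 ratio was not spread evenly over members. In Arg1-led members Ccl8 was at 30.8 CPM in Cre- and 410 CPM in PHDTiEC, a log2 ratio of 3.73 (3.25 to 4.26), in Gpnmb-led members at 66.9 and 190 CPM, and in Mmp12-led members at 53.6 and 50.8 CPM, a log2 ratio of -0.08 (-0.30 to 0.15). A Ccl8 UMI was found in 8.11% of Arg1-led members in Cre- and 30.4% in PHDTiEC, and in 7.36% and 9.46% of Mmp12-led members. Of the UMIs of Ccl8 in Arg1-led members, 1 barcode gave 44.4% in Cre- and 26.4% in PHDTiEC. Other genes were also higher in the Arg1-led members of PHDTiEC. H2-Ab1 was at 832 and 2440 CPM, a log2 ratio of 1.55 (1.45 to 1.66), Mgl2 at 24.8 and 132 CPM and Selenop at 361 and 828 CPM. Hilpda went the other way in Arg1-led members, at 303 CPM in Cre- and 93.4 CPM in PHDTiEC, a log2 ratio of -1.70 (-2.01 to -1.40).

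Over the class II list the ratio between libraries depended on the leading gene. Its median was log2 1.08 in Arg1-led members, with 9 of 10 genes above 0 and 7 past 1.5-fold, 0.76 in Gpnmb-led members, with 10 of 10 above 0 and 8 past 1.5-fold, and -0.16 in Mmp12-led members, with 2 of 10 above 0. Over all members the median was -0.12 and no gene of the list passed 1.5-fold. Per barcode, the sum of 4 class II genes in Gpnmb-led members had medians of 2.37 per 10000 in Cre- and 3.31 in PHDTiEC. Its upper quartiles were 12.8 and 85.5, so most Gpnmb-led members had few class II transcripts in both libraries. The share of all genes past 1.5-fold within a leading-gene group was not counted. All these values rest on 1 mouse per genotype, and the Arg1-led ones on 74 and 92 barcodes.

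Mfge8 was more than 1.5-fold higher in PHDTiEC members and near even in other macrophage barcodes. It stood at 367 CPM in Cre- and 643 CPM in PHDTiEC, a log2 ratio of 0.81 (0.75 to 0.86), at 0.72 (0.66 to 0.77) without other-lineage barcodes and at -0.05 (-0.19 to 0.10) in other macrophage barcodes. Within the leading-gene groups the ratio was 0.69 (0.61 to 0.77) in Gpnmb-led, 0.98 (0.42 to 1.56) in Arg1-led and 0.39 (0.30 to 0.47) in Mmp12-led members. In Arg1-led members of PHDTiEC, 1 barcode gave 65.1% of the Mfge8 UMIs. With the 3 groups weighted equally in both libraries the ratio was 0.66. A UMI of Mfge8 was found in 33.9% of members in Cre- and 36.5% in PHDTiEC, so the share of members with the gene was closer than its level.

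Of 11 interferon-induced genes Cxcl10, Oasl2 and Ifit2 were more than 1.5-fold higher in PHDTiEC members and none lower, with a list median of log2 0.46, against 0.32 in members without other-lineage barcodes and 0.42 in other macrophage barcodes. Oasl2 was at 10.9 and 19.2 CPM, a log2 ratio of 0.82 (0.50 to 1.15). Of the other lists, Apoc1 was higher among 18 lipid genes, Cp among 8 measured iron genes, Chil3 and Ccl24 among 9 measured genes of alternative activation, and Flt1 and Sparc among receptor and matrix genes. Chil3 turned to a log2 ratio of -0.34 without Gpnmb in the rule and to -0.14 after thinning to 2000 UMIs, and it was at -0.90 in Arg1-led and -0.67 in Mmp12-led members. In Gpnmb-led members of PHDTiEC, 1 barcode gave 45.1% of the Chil3 UMIs. Ccl24 took 85.1% of its UMIs in 1 library from 1 barcode, and Sparc and Flt1 had log2 ratios of -0.71 and 0.07 without other-lineage barcodes. Cp was within 1.5-fold in each leading-gene group, at log2 ratios of 0.26 in Gpnmb-led, 0.39 in Arg1-led and 0.55 in Mmp12-led members. In Cre-, 1 barcode gave 64.8% of the Cp UMIs of Gpnmb-led members and 1 gave 77.3% of those of Arg1-led members. Apoc1 was at 0.24 in Gpnmb-led, 0.20 in Arg1-led and 1.30 in Mmp12-led members. Itgal, the alpha chain of the integrin LFA-1, was lower, at 40.7 CPM in Cre- and 26.5 CPM in PHDTiEC. Marco, Hbegf and Hp were lower too, with 22.05% to 39.7% of their UMIs from 1 barcode. The calls for Marco, Hbegf and Hp turned direction elsewhere: after thinning Marco and Hbegf were both at 0.18, Hbegf was at 0.032 as a mean over barcodes, and Hp was at 0.037 with at most 40000 UMIs.

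Over all members no glycolysis gene or HIF target on the lists passed 1.5-fold between the libraries, and some did in Arg1-led members. For 18 genes of glycolysis and lactate export the list median was log2 -0.21, with Gapdh at 1251 CPM in Cre- and 1069 CPM in PHDTiEC. For 14 measured HIF targets the median was -0.06. The glycolysis median was -0.23 without other-lineage barcodes and -0.08 in other macrophage barcodes. Over all genes tested in members the median was 0.05. Of the 18 glycolysis genes, 5 were above 0 in Gpnmb-led, 3 in Arg1-led and 4 in Mmp12-led members. In Arg1-led members the glycolysis median was -0.46, with 6 of 18 genes more than 1.5-fold lower in PHDTiEC and 1 higher, and the HIF target median was -0.47, with 6 of 14 lower and none higher. Some of the lower HIF targets had few UMIs in Arg1-led members, such as Ddit4 with 20 in Cre- and 11 in PHDTiEC, and Bnip3 with 57 and 29. The share of all genes past 1.5-fold in Arg1-led members was not counted, so these counts do not set the lists apart from other genes. In Gpnmb-led and Mmp12-led members the glycolysis medians were -0.16 and -0.12 and the HIF target medians 0.02 and -0.05. The medians were 0.02 for 18 lipid genes and 0.05 for 14 lysosomal genes, none of the lysosomal genes past 1.5-fold. They were -0.02 for 11 uptake genes, -0.13 for 7 arginine and polyamine genes, -0.12 for 14 inflammatory genes, -0.10 for 16 measured matrix genes, -0.02 for 11 measured growth factors, 0.01 for 12 measured resident genes, -0.11 for 10 measured monocyte genes, 0.13 for 9 measured genes of alternative activation, -0.03 for 8 measured iron genes and -0.03 for 11 stress genes. For 11 measured receptors for ligands made by endothelium, on which Flt1 was higher and Itgal lower, the median was 0.10. Cxcr4, the receptor for CXCL12, was at 72.7 CPM in Cre- and 100 CPM in PHDTiEC, within 1.5-fold. On the list that the study chose on these libraries, of 24 genes Cp passed 1.5-fold higher, with the limits given above, and none lower, with a median of 0.23. The floxed genes were measured by 3′ tags, which check nothing where they lie outside the deleted part. Egln1, Egln2 and Egln3, which encode PHD2, PHD1 and PHD3, stood in members at 34.8 and 34.0 CPM, 29.8 and 27.9 CPM, and 2.56 and 2.22 CPM.

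By the same choice, the 10 lowest genes in PHDTiEC members were Ifi202b, G0s2, Gas2, Gm32461, Kcnj15, Saa3, Dppa3, Ugt2b37, Pcdh7 and Cda. Ifi202b, an interferon-inducible gene of the Ifi200 family, had 235 UMIs in 22.4% of Cre- members and 0 UMIs in PHDTiEC members, at least 100-fold lower against a floor of 3 UMIs over the members of that library. It was at 43.9 CPM in Cre- and 0.113 CPM in PHDTiEC in other macrophage barcodes, so the difference was not particular to members. Saa3, an acute-phase apolipoprotein, was at 29.6 and 12.9 CPM, a log2 ratio of -1.20 (-1.48 to -0.93), and was at -1.43 (-1.81 to -1.06) in other macrophage barcodes. G0s2, an inhibitor of the lipase that empties lipid droplets, was at 31.1 and 7.34 CPM in all members and at 7.80 and 2.18 CPM without other-lineage barcodes.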

How the data were processed

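Raw counts of unique molecular identifiers per gene and barcode, as deposited by the authors, were analysed. Per the labels and the study's methods the libraries were made with 10X Genomics 3′ v3.1 chemistry from the injured kidney of 1 mouse per genotype and sequenced reads were counted with Cell Ranger. The submitters' processing notes name Cell Ranger and mm10, and the matrix header names Cell Ranger 4. The deposited count matrices list 6794880 barcodes and 32285 genes, and total counts were 136004367 in Cre- and 146758812 in PHDTiEC, so barcodes were filtered as given in the report.

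Members, gene lists and comparisons were chosen with earlier results of these data known, and the division by leading gene and by Retnla after its values were seen. No doublet caller was run. Barcodes with at least 20 UMIs per 10000 from markers of tubule, endothelium, stroma, lymphocytes or neutrophils were left out of both sides when members were compared with other macrophage barcodes and when members were divided by leading gene, and their effect is given beside the comparison of the libraries. Counts were summed over the barcodes of a class and scaled to counts per 1000000 counts of that sum (CPM). Resident-like barcodes held Mrc1 and Ccl8 at 3 per 10000 or more in at least 2 UMIs and C1qa, C1qb and C1qc at 10 per 10000 or more. With 1 library per group no test was made. Fold limits of 1.5 (libraries) and 2 (members against other macrophage barcodes, in both libraries) were applied to genes with at least 100 UMIs. Intervals are exact 95% Clopper-Pearson intervals for shares and exact binomial intervals for ratios of counts. For ratios of shares they are approximate 95% intervals from a normal distribution on the log scale. All cover counting error only, and they treat the barcodes or the UMIs of a class as independent. A gene without UMIs was set against a floor of 3 UMIs over the class. Genes named are those of the lists, plus the 10 highest and 10 lowest in each comparison, leaving out the genes of the member rule, mitochondrial, ribosomal, haemoglobin and sex-linked genes, lineage markers, and genes with more than 25% of their UMIs from 1 barcode. Cebpb is on the study's list. The script was tested on simulated counts, drawn per gene without variation between barcodes. That test therefore does not check the intervals of genes whose UMIs come from few barcodes. Other settings tried were limits on mitochondrial share, depth and markers, thinning to 2000 UMIs, TMM scaling, means over barcodes, subtraction of free transcripts and minimum counts. Gene positions are from GRCm38 (GENCODE vM21), in which 32235 of 32285 genes were matched. Python 3.11.15, numpy 2.4.6, scipy 1.17.1, pandas 2.3.3, matplotlib 3.10.9, R 4.3.3 and edgeR 4.0.16 (TMM alone) were used.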

Additional observations from a re-analysis of the deposited data

Results flagged for a closer look

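Cebpb, a transcription factor of myeloid cells, stood on opposite sides of other macrophage barcodes in the libraries. It was at 700 CPM in members and 641 CPM in other macrophage barcodes in Cre-, a log2 ratio of 0.13 (0.08 to 0.17), and at 714 and 777 CPM in PHDTiEC, a log2 ratio of -0.12 (-0.16 to -0.08). Both ratios are small, the members' levels were close, and with 1 library per genotype the difference was not tested.

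Thbs1 differed in direction between members led by different genes. Its PHDTiEC over Cre- log2 ratio was 0.69 (0.49 to 0.89) in Gpnmb-led and -0.81 (-1.0 to -0.63) in Arg1-led members, and this difference was not tested.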

How the results depend on the processing

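No paired analysis was possible because each genotype has 1 library, and for the same reason no replicate could be left out. The ratio of member shares of kept barcodes was 1.31 without Mmp12 and 1.03 without Gpnmb in the rule, and that of macrophage barcodes 1.29 and 1.01. Between the libraries, the numbers of genes past 1.5-fold were 117 higher without barcodes at 20 other-lineage UMIs per 10000, 97 higher and 82 lower at a limit of 10, 81 lower with at most 40000 UMIs, 91 higher and 32 lower after thinning to 2000 UMIs, 381 higher as means over barcodes, 585 higher and 237 lower with free transcripts subtracted, 790 higher and 508 lower from 20 UMIs, and 1965 higher and 1464 lower from 1 UMI. Against other macrophage barcodes, 580 genes were lower with a macrophage limit of 10 UMIs, 669 with a lineage limit of 10, 699 with at most 40000 UMIs, 267 after thinning, 684 as means over barcodes, 2253 from 20 UMIs and 2353 from 1 UMI, and 476 were higher from 1 UMI. TMM scaling moved the member ratios by 0.21 in Cre- and 0.18 in PHDTiEC.

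Of 4082 values of single genes and lists under other settings, 3137 stayed within the counting interval of the value reported or, for lists and ratios against other macrophage barcodes, within 0.2 on the log2 scale, 917 moved further, and 28 that had passed the fold changed direction. Without other-lineage barcodes at 20 per 10000 the library ratios were -0.48 for Col6a3, -2.18 for Gpihbp1, -0.25 for Igfbp5, -0.088 for Nid1, -0.71 for Sparc and -0.19 for Sparcl1, and at 10 per 10000 -0.083 for Bgn, -0.58 for Col5a2, -0.31 for Col6a3, -0.051 for Gpihbp1, -0.45 for Igfbp5, -1.31 for Nid1, -0.78 for Plat and -0.71 for Sparc. Thinning gave -0.14 for Chil3, -0.24 for Gpihbp1, 0.18 for Hbegf, 0.18 for Marco and 0.086 for Pcdh7. Ccl24 was at -1.94 without Arg1 in the rule and -1.06 without its top barcode, Chil3 at -0.34 without Gpnmb, Hp at 0.037 with at most 40000 UMIs, Hbegf at 0.032 as a mean over barcodes and Sparcl1 at -0.38 with free transcripts subtracted. Without Mmp12 in the rule, members over other macrophage barcodes were at -1.68 for Areg in PHDTiEC and at -5.27 in Cre- and -4.0 in PHDTiEC for Retnla. Thinning leaves fewer genes and barcodes to test, and the lower minimum counts bring in more genes. Otherwise the cause was not tested. The settings on the shared barcodes and on equal weight of leading-gene groups were chosen after seeing the data.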
